A study of Mus musculus with 4 samples.

Results

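The machinery that brings nuclear-encoded proteins into mitochondria was examined in subcutaneous white adipose tissue of 2 FtMT-Adip and 2 wild-type (WT) samples. It was represented by 27 gene names of 29530 on the array, and by 42 probes of 45281. Members were the probes named for subunits of the outer-membrane translocase (TOM), the inner-membrane translocases (TIM), the metaxins, the mitochondrial processing peptidase, the GrpE-like and DNAJC19 cochaperones, CHCHD4 and GFER. The rule also asked for SAMM50, which no probe carried as its name. Names alone decided membership, not measured values, and so took in Tomm34, a cytosolic cochaperone. FtMT-Adip mice were C57BL/6 animals that expressed mitochondrial ferritin, an iron-storage protein of the matrix, from a transgene restricted to fat. WT mice were of the same strain without it. Both groups were 8 to 12 weeks old and had received high-fat diet with doxycycline for 3 weeks, so the drug was common to all 4 arrays. Which promoter drives the transgene is not stated in the labels. The labels do not say that an array holds separate animals, so p-values measure only the spread between these samples, which may be technical.

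Nearly all mitochondrial proteins are made in the cytosol as precursors. The TOM complex admits them through the outer membrane. Precursors with a cleavable presequence then pass the TIM23 channel, drawn in by the matrix Hsp70 motor, and the processing peptidase removes the presequence. Carrier proteins are led by small Tim chaperones to the TIM22 channel, barrel-shaped outer-membrane proteins go to the SAM complex, and small cysteine-rich proteins are trapped by a disulfide relay in the intermembrane space. In adipocytes this supply serves fatty acid oxidation and lipid synthesis. Import failure in cultured mammalian cells is a known trigger of the ATF4 stress response.

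The arrays had median signals of 116.5 to 119, and 19717 to 20427 probes per array exceeded background, taken as the 95th percentile of probes for olfactory and vomeronasal receptors. Signals are given in the scanner's arbitrary units before normalization. The mouse Ftmt probe gave 104.9 and 106.8 in FtMT-Adip, against 102.1 and 110.6 in WT, below background on every array. Whether it matches the transgene is not known, so it does not check the labels. All 8 adipocyte markers were tested, with Fabp4 above background in WT only; 6 were lower in FtMT-Adip and 0 higher, while 8 of 9 macrophage markers were higher and 0 lower. The summed normalized signal of the adipocyte markers was 30993 and 45908 in FtMT-Adip, against 96259 and 83572 in WT. That of the macrophage markers was 24939 and 19517 in FtMT-Adip, against 7199 and 8719 in WT. The 5 tested skeletal muscle markers of 7 summed to 6525 and 1738 in FtMT-Adip, against 848.1 and 948.4 in WT, with Myh1 below background on all arrays. Of these 5 markers, 2 were called higher in FtMT-Adip and 0 lower. Of 5 endothelial markers 2 were lower and 0 higher, and no marker of B and T cells, fibroblasts, mammary epithelium or brown fat was called. Only 1 of 4 mammary and 2 of 3 brown fat markers could be tested, and these differed widely between arrays of the same group. Ucp1 gave 110.2 and 132 in FtMT-Adip, against 498.1 and 108.1 in WT. Cidea gave 632.9 and 1397.4 in FtMT-Adip, against 839.1 and 225.5 in WT. Krt8, a mammary marker, gave 313.5 and 139.9 in FtMT-Adip, against 129.1 and 133.2 in WT. Fewer cells of a type and less RNA per cell cannot be told apart in whole tissue, and the part of these shifts in the import values was not tested.

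Promoters are shown for 4 of the members that hold a match to factors known to drive nuclear genes of mitochondrial proteins, since such genes are often regulated together. The selection of windows skipped a whole chromosome, so RefSeq may hold windows that were not used. No window was used for Grpel2, Tomm7 and TIMM13A. RefSeq windows (GRCm38.p6, 300 bases around the start, most of them before it) were used for 24 of the 27 names, as 26 windows. They were searched on both strands for GCGCANGCG (NRF1), CCGGAAGT (GABPA and other ETS factors), TCAAGGTCA (ERR), TGATGNAAN (ATF4 with CHOP) and CACGTG (E-box). Capitals mark the matches, none of which overlap each other in the windows shown. The last window belongs to Hspd1, a chaperonin gene outside the list, which is shown because its transcript rose in FtMT-Adip. No window was used for Hspa9, the matrix Hsp70 gene outside the list, whose transcript also rose.
Mtx2 chr2:74825562-74825861 (+): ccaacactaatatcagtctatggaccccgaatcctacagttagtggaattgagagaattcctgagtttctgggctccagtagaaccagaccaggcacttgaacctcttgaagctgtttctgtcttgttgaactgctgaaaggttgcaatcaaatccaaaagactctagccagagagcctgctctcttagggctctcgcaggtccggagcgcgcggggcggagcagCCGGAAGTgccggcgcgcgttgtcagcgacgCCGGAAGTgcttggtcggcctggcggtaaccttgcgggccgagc
Tomm70a chr16:57121464-57121763 (+): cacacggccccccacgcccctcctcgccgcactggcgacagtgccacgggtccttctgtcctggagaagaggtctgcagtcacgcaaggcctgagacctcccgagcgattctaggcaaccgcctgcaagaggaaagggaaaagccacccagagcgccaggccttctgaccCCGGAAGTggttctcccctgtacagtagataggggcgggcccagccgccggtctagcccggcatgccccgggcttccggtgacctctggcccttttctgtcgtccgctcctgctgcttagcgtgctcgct
Chchd4 chr6:91473374-91473673 (-): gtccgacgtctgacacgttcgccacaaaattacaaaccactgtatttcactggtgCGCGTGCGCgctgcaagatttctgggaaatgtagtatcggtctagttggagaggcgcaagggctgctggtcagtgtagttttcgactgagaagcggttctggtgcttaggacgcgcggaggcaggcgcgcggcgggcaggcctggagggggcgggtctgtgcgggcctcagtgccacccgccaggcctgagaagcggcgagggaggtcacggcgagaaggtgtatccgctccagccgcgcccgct
Timm8b chr9:50603651-50603950 (+): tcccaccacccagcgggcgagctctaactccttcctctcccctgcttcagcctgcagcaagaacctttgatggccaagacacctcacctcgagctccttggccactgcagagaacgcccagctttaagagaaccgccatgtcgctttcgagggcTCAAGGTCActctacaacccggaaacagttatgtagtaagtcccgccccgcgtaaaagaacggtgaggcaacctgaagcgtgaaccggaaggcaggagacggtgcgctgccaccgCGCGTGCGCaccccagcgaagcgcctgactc
Hspd1 chr1:55088194-55088493 (-): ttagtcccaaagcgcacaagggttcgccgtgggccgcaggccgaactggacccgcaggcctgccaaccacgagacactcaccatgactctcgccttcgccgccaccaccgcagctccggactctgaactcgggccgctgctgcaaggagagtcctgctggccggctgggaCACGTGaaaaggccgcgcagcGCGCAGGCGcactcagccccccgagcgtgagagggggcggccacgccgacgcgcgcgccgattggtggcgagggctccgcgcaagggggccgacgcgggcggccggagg

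The ETS match began 25 bases before the start and again at base 7 after it in Mtx2, and 80 bases before the start in Tomm70a. The NRF1 match lay 195 bases before the start in Chchd4, at base 20 after it in Timm8b and 59 bases before it in Hspd1. Timm8b also held the ERR match, 96 bases before its start, and Hspd1 an E-box, 80 bases before. Among the 26 member windows, 6 held the ETS letters (23.1%, against 3.89% of 32851 windows in the table), 3 held NRF1 (11.5% against 6.25%), 4 held an E-box (15.4% against 7.15%), 1 held ERR (3.85% against 0.423%) and 0 held the ATF4 letters (against 3.95%). These are counts of letters in short windows, not of bound sites. The chromosome skipped for the members was not skipped among the 32851 windows. Among the genes for the factors, Atf4 and Ddit3, which encodes CHOP, were called higher in FtMT-Adip by limma (log2 changes of 0.97 and 2.21), while Nrf1, Gabpa and Esrra were not called. Nrf1 had a log2 change of 0.13 (SE 0.161), Gabpa of -0.00 (SE 0.105) and Esrra, which encodes an ERR, of 0.29 (SE 0.159), with adjusted p = 0.711, 0.993 and 0.337 in limma.

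No import transcript passed the test between FtMT-Adip and WT, and most estimates lay close to no change. Changes are log2 of FtMT-Adip over WT after background correction and quantile normalization. Of the 42 probes, 33 passed the filter on dim signal, and 0 of these were called higher or lower by limma at an adjusted p under 0.05, where 7.44% of 20797 tested probes on the array were called. At an unadjusted p under 0.05 there were 3 of 33 (9.09%), against 21.4% of all tested probes. These 3 included Mtx2, which entered the test only through FtMT-Adip, where it was high. The smallest adjusted p of a member was 0.0917. The median log2 change of the 33 probes was 0.11, beside 0.00 for all tested probes, and was 0.04 without FtMT-Adip 2 and 0.05 without WT 2. The median size of the change, without its sign, was 0.13 for the members and 0.15 for all tested probes. Of the 33 probes, 26 had positive and 7 negative values, between -0.35 and 0.63. Over all tested probes, 10592 were positive and 10204 negative. The 95% interval of the change lay within a 2-fold rise or fall for 32 of the 33 (97.0%), beside 92.2% of all tested probes. A change smaller than these intervals was not detectable with 2 arrays per group.

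**Figure D1:**
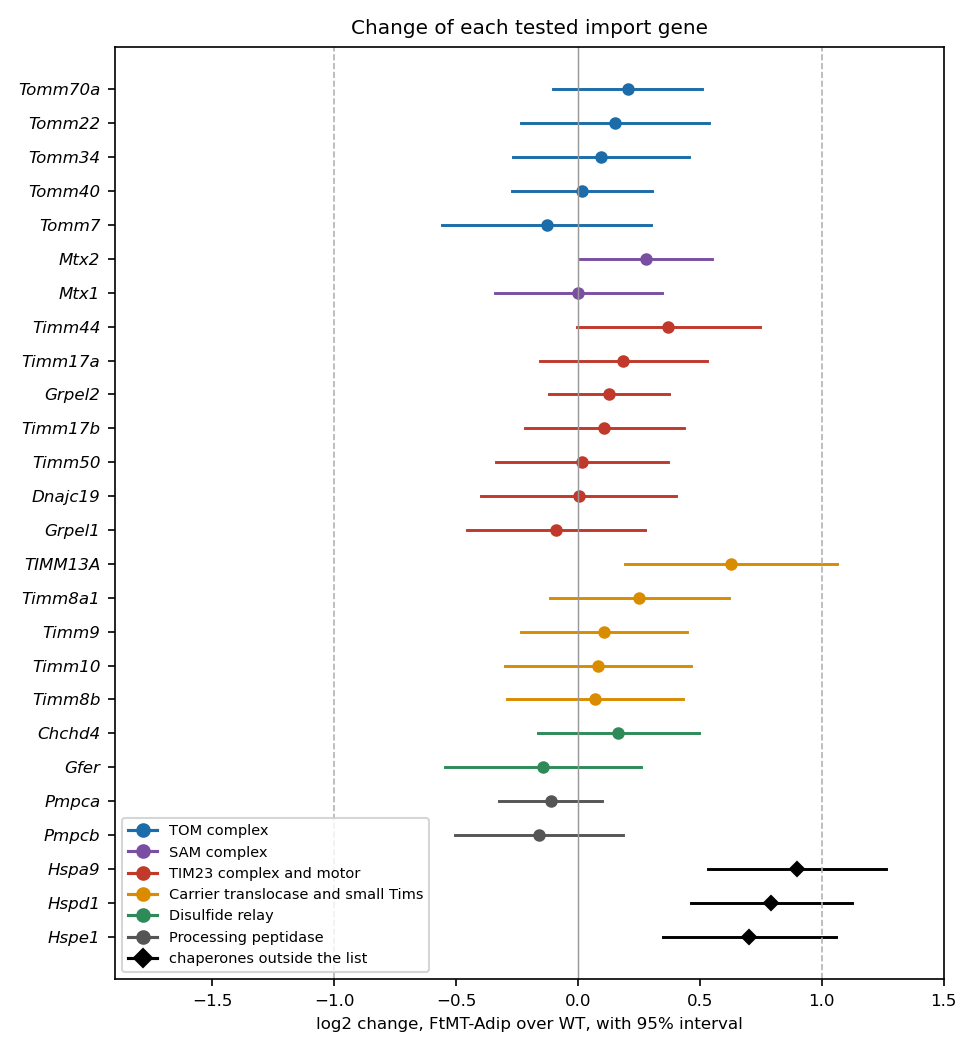
Log2 change in FtMT-Adip over WT for the 23 tested import genes, each by its brightest probe, with 95% intervals from limma; dashed lines mark a 2-fold change and black diamonds the chaperone genes Hspa9, Hspd1 and Hspe1. Changes of the import genes run from -0.16 to 0.63, and among them only the interval of TIMM13A reaches past a 2-fold rise.

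**Figure D2:**
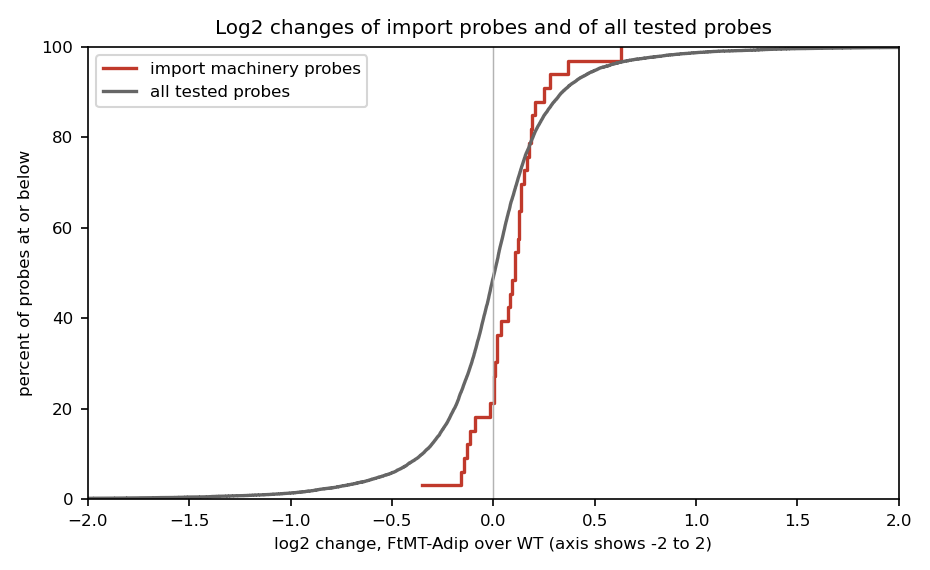
Cumulative percentage of probes (vertical axis) at or below a given log2 change in FtMT-Adip over WT (horizontal axis, from -2 to 2), for the 33 tested import probes and all 20797 tested probes. The import probes lie between -0.35 and 0.63, whereas all tested probes extend from -3.73 to 4.36, beyond the axis.

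In the TOM complex, counted together with the cytosolic cochaperone Tomm34, 5 of 6 genes could be tested, with log2 changes of -0.13 to 0.20. Tomm22, the central receptor that binds precursors and holds the complex together (ILMN_2507182), gave 782.3 and 929.1 in FtMT-Adip, against 723.9 and 829.3 in WT. Its groups overlapped, with a log2 change of 0.15 (SE 0.17, adjusted p = 0.680 in limma). The authors' deposited table has the opposite direction for this probe, with a ratio of FtMT-Adip over WT of 0.617. Tomm40, the channel itself (ILMN_1223361), gave 161.2 and 179.2 in FtMT-Adip, against 167.8 and 164.8 in WT. The WT arrays lay between those of FtMT-Adip, and the log2 change was 0.02 (95% interval -0.27 to 0.30). Tomm70a, the receptor for carrier precursors that arrive with cytosolic chaperones, gave 196.7 and 186.7 in FtMT-Adip, against 173.5 and 166.8 in WT. Both FtMT-Adip arrays were higher, yet the change of 0.20 (95% interval -0.10 to 0.51, adjusted p = 0.444) did not pass limma's test.

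Tomm7, a small subunit that modulates assembly of the complex, gave 1017 and 1379 in FtMT-Adip, against 1557 and 1121 in WT. Arrays of the same group differed more here than the groups did (log2 change -0.13, SE 0.190). Tomm34, a cytosolic cochaperone of precursors, had 2 tested probes at 0.09 and 0.04 on the log2 scale. The only probe for Tomm20, the presequence receptor (ILMN_2477259), gave 118.4 and 119.1 in FtMT-Adip, against 118.2 and 117.1 in WT. It was not above background on any array, so it gives no level for the gene. The same held for the other probes of Tomm22 and Tomm40.

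The SAM complex was represented by its metaxins. Mtx2 (ILMN_2641449) gave 122.6 and 146.5 in FtMT-Adip, against 117.7 and 117 in WT. It was above background on the FtMT-Adip arrays but on 0 of the 2 WT arrays, and so entered the test only through the group where it was high. Its log2 change was 0.28 (95% interval 0.01 to 0.55), with adjusted p = 0.219 in limma, and over the 4 single-array omissions it ran from 0.11 to 0.45. Mtx1, its outer-membrane partner, gave 1462 and 1513 in FtMT-Adip, against 1683 and 1398 in WT, with overlapping groups and a log2 change of 0.00 (95% interval -0.34 to 0.34). The authors' deposited table gives this Mtx1 probe a ratio of FtMT-Adip over WT of 0.743. The other tested probes of Mtx1 stood at -0.02 and 0.12.

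The TIM23 channel and its motor had 7 of 8 genes tested, with log2 changes of -0.09 to 0.37. Timm44, the scaffold that ties matrix Hsp70 to the channel, was the highest of them. Its brightest probe (ILMN_2750428) gave 722.1 and 684.9 in FtMT-Adip, against 601 and 493.4 in WT. Another probe (ILMN_2968676) gave 524.3 and 540.1 in FtMT-Adip, against 480.8 and 471.9 in WT. The dimmest (ILMN_2589211) gave 344.3 and 375.8 in FtMT-Adip, against 331.3 and 317.2 in WT. Both FtMT-Adip arrays were higher than both WT arrays for all 3 probes. Their log2 changes were 0.37 (95% interval -0.01 to 0.75), 0.14 and 0.14, with adjusted p = 0.241, 0.667 and 0.665 in limma. Over all tested probes, the groups did not overlap for 51.5%. The authors' deposited table gives the 3 probes, in this order, ratios of FtMT-Adip over WT of 1.18, 0.875 and 1.21. There ILMN_2968676 has the opposite direction, and the groups overlap for all 3 probes.

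Timm17a and Timm17b encode alternative partners of the channel. Timm17a, whose protein is known to be lowered under stress in cultured cells, gave 1794 and 2031 in FtMT-Adip, against 1713 and 1792 in WT. Its lower FtMT-Adip value almost met the higher WT value, and the log2 change was 0.19 (SE 0.151, adjusted p = 0.547 in limma), against a ratio of FtMT-Adip over WT of 0.948 in the authors' deposited table. Timm17b (ILMN_2824012) gave 135.8 and 165.2 in FtMT-Adip, against 148.9 and 132.7 in WT. Its groups overlapped, with FtMT-Adip 1 close to the lower WT array (log2 change 0.11, SE 0.144). Timm50, the receptor that receives presequences from TOM, gave 525 and 639.2 in FtMT-Adip, against 593.8 and 522.1 in WT. Its log2 change was 0.02 (95% interval -0.34 to 0.37). Timm23, the channel protein, had 2 probes with signals of 104.2 to 107.7 in FtMT-Adip and 104.8 to 110.6 in WT, none above background.

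Among the cochaperones of the motor, Grpel1, the main nucleotide exchange factor of matrix Hsp70, gave 867.7 and 1081 in FtMT-Adip, against 1125 and 962.5 in WT. Its groups overlapped, with a log2 change of -0.09 (SE 0.161), and its dimmer probe had the opposite sign (0.13). Grpel2, a second exchange factor, gave 147.7 and 146 in FtMT-Adip, against 136 and 138 in WT. Both FtMT-Adip arrays were higher by a small amount (log2 change 0.13, 95% interval -0.12 to 0.37, adjusted p = 0.577 in limma).

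Dnajc19, whose human counterpart is mutated in a cardiomyopathy with ataxia, had probes that differed. The brighter (ILMN_3103439) gave 1940 and 2634 in FtMT-Adip, against 2238 and 2563 in WT, a log2 change of 0.00. The dimmer (ILMN_3030148) gave 158.2 and 179.3 in FtMT-Adip, against 204.4 and 193.2 in WT. Here both FtMT-Adip arrays were lower (log2 change -0.35, 95% interval -0.66 to -0.04), but adjusted p was 0.174 in limma. The authors' deposited table gives this dimmer probe a ratio of FtMT-Adip over WT of 0.50 and p = 0.0189, before any adjustment, and the brighter a ratio of 0.821.

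**Figure D3:**
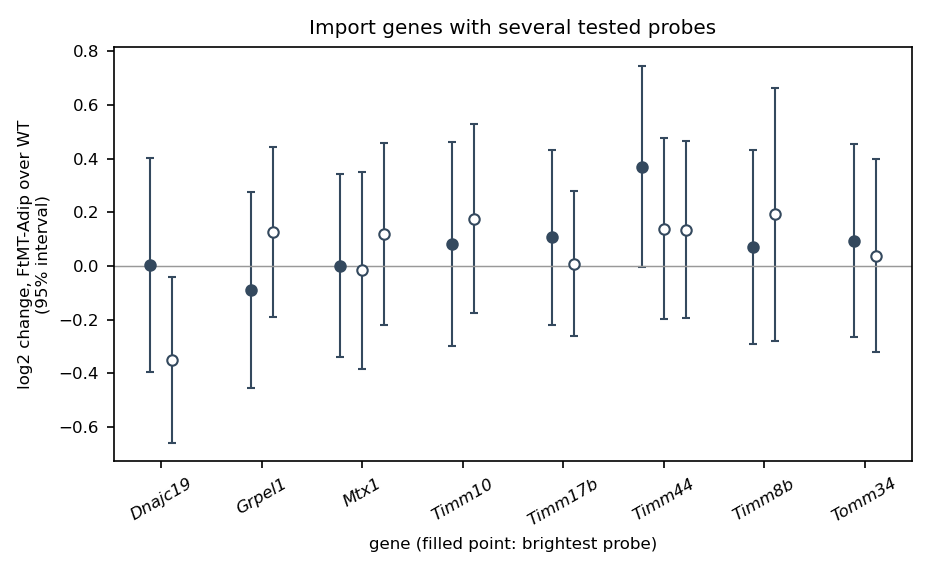
Log2 change in FtMT-Adip over WT (vertical axis) with 95% intervals for each tested probe of the 8 import genes that have several; the filled point is the brightest probe. Signs differ between probes of Dnajc19, Grpel1 and Mtx1, and the widest span, 0.35, is that of Dnajc19.

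The small Tim chaperones, which escort carriers and other membrane proteins across the intermembrane space, included the member nearest to a call. The probe listed as TIMM13A (ILMN_1227235) gave 392.9 and 443.9 in FtMT-Adip, against 248.4 and 319.7 in WT. Both FtMT-Adip arrays exceeded both WT arrays, and WT 1 was the lowest. This was a 1.55-fold difference (log2 change 0.63, 95% interval 0.19 to 1.06, adjusted p = 0.0917 in limma), which did not pass. The value was 0.89 without WT 2, where it passed (adjusted p = 0.0309), and 0.37 without WT 1. In the RefSeq table TIMM13A is an older synonym of Timm10 alone, whereas Timm10 has probes under its own symbol, so the gene behind this probe is not settled. The names TIMM9 and TIMM10 carry the same doubt, since each is also an older synonym of another small Tim.

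Timm8a1, the mouse counterpart of the human deafness-dystonia gene, gave 739.3 and 913.5 in FtMT-Adip, against 678.9 and 716.9 in WT. Both FtMT-Adip arrays were higher (log2 change 0.25, SE 0.162, adjusted p = 0.430 in limma). Timm8b, listed with 2 probes, gave 1795 and 2330 in FtMT-Adip, against 2228 and 1864 in WT by the brighter. The groups overlapped for both probes (0.07 and 0.19). The probes named Timm9 (0.11) and Timm10 (0.08 and 0.18) also had overlapping groups. Timm22, the channel for carriers, gave 116.4 and 113.9 in FtMT-Adip, against 118.1 and 121.6 in WT, and was above background on 1 WT array only. Timm8a2 was not above background on any array.

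Chchd4, the receptor and oxidase of the disulfide relay, gave 294.1 and 292.9 in FtMT-Adip, against 268.1 and 254.7 in WT. Both FtMT-Adip arrays were higher, with a log2 change of 0.17 (95% interval -0.17 to 0.50, adjusted p = 0.585 in limma). Gfer, the sulfhydryl oxidase that recharges Chchd4, gave 775.8 and 1014 in FtMT-Adip, against 1128 and 863.2 in WT. Its groups overlapped (log2 change -0.14, SE 0.178), and the sign turned to 0.01 without FtMT-Adip 1.

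Neither subunit of the processing peptidase passed the test. Pmpcb, the catalytic subunit, gave 351.5 and 396.2 in FtMT-Adip, against 393.6 and 413.9 in WT, with a log2 change of -0.16 (95% interval -0.50 to 0.19, adjusted p = 0.620 in limma). After normalization the FtMT-Adip arrays were the lower pair, although the unnormalized signals overlapped, as they did for Pmpca. Pmpca, the substrate-binding subunit, gave 116.3 and 122.4 in FtMT-Adip, against 129 and 119.9 in WT. It was above background on both WT arrays and on 0 of the 2 FtMT-Adip arrays, and so entered the test only through WT (log2 change -0.11, SE 0.093, adjusted p = 0.555).

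**Figure D4:**
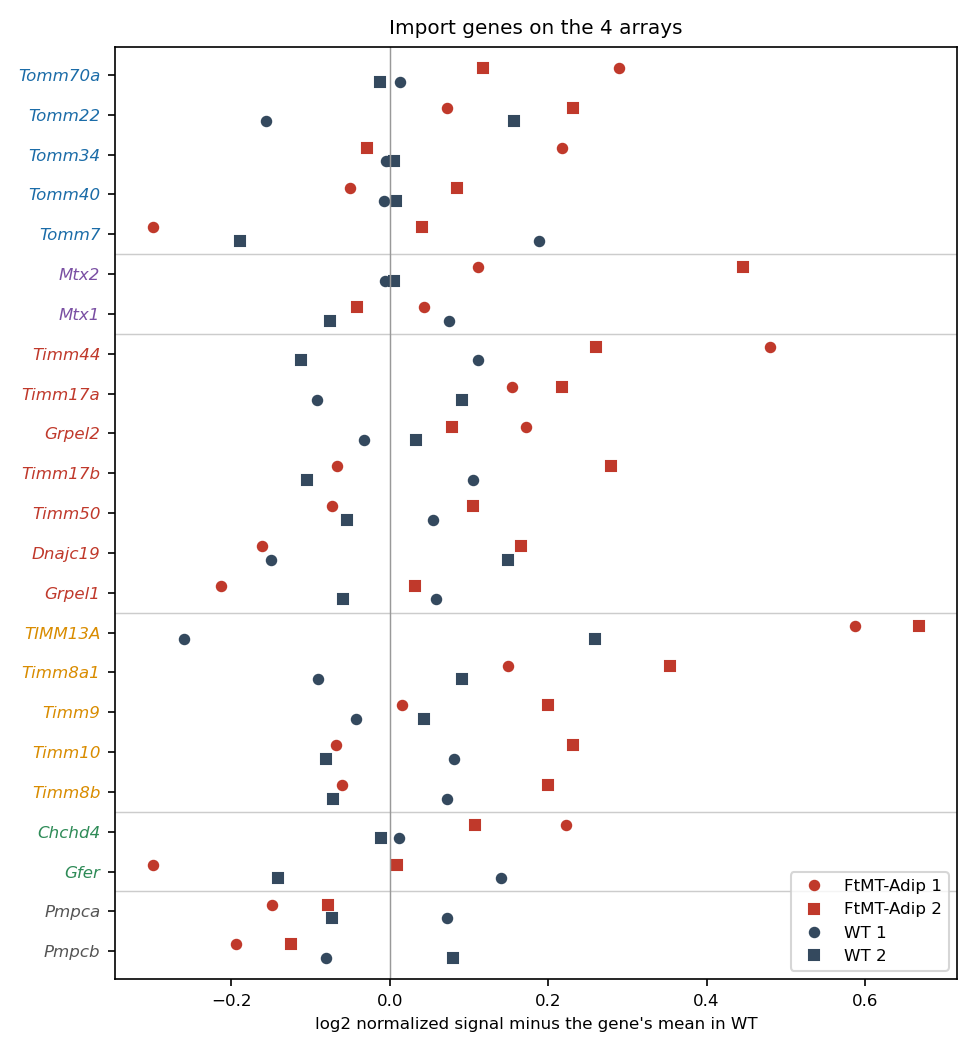
Normalized log2 signal of each tested import gene on the 4 arrays, minus the gene's mean in WT (horizontal axis); circles and squares are arrays numbered 1 and 2, and name colours and lines separate TOM, SAM, TIM23, small Tim, disulfide relay and peptidase genes from top to bottom. In 10 of the 23 genes (43.5%) the FtMT-Adip and WT arrays do not overlap, beside 51.5% of all tested probes. The 10 include Mtx2 and Pmpca, each tested only through the group where it was higher. The FtMT-Adip means lie farthest to the right for TIMM13A, Timm44 and Mtx2.

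Differences between single arrays of a group and between group means are given side by side. A mean of 2 arrays varies less than a single array, so the 2 measures are unlike. Among the 33 tested probes the median size of the log2 difference was 0.17 between the FtMT-Adip arrays, 0.16 between the WT arrays and 0.13 between the group means. Over all tested probes it was 0.14 within each group and 0.15 between the means. FtMT-Adip 2 was above FtMT-Adip 1 for 25 of the 33 probes, with a median difference of 0.12, while over all tested probes FtMT-Adip 2 was above for 51.7% with a median of 0.01. The groups did not overlap for 14 of the 33 probes (42.4%), 11 with FtMT-Adip higher and 3 with it lower, whereas 51.5% of all tested probes were of that kind. Over all tested probes without overlap, 5329 had FtMT-Adip higher and 5391 had it lower. The 11 import probes included 3 of Timm44 and that of Mtx2, and the 3 lower ones included that of Pmpca. Mtx2 and Pmpca were each above background only in the group where they were higher. Of the 8 genes with several tested probes, 5 had the same sign in all of them. Among these 5, the tested probes of Timm44, Timm8b and Tomm34 had ratios in opposite directions in the authors' deposited table.

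Probes of the same family that the table lists under older names were found through RefSeq synonyms, a search added after the tables were seen. There were 19 for 9 genes, of which 13 for 6 genes were tested. By limma 0 were called, beside 7.44% of all tested probes, and 1 had an unadjusted p under 0.05, beside 21.4%. Their log2 changes ran from -0.23 to 0.40, with a median of -0.10, and 12 of the 13 were negative. Tomm5, a small TOM subunit, was the exception, with 1750 and 1820 in FtMT-Adip, against 1525 and 1312 in WT. Both FtMT-Adip arrays were higher (log2 change 0.40, 95% interval 0.06 to 0.73), though adjusted p was 0.156 in limma. The median of the 33 probes was positive and that of these 13 negative. The only probe for Samm50, the SAM channel, was not above background on any array.

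A list of 24 other genes of import and of protein handling after import had 20 that could be tested. It includes Tomm5, Tomm6, Timm21 and Timm29, already counted under older names. By limma 3 rose and 0 fell, beside the 7.44% of all tested probes called. All 3 encode chaperones of the matrix. Hspa9, the matrix Hsp70 that pulls precursors through TIM23 and also serves iron-sulfur cluster assembly, gave 11403 and 10810 in FtMT-Adip, against 7325 and 5350 in WT. This was 1.87-fold higher (log2 change 0.90, 95% interval 0.53 to 1.26, adjusted p = 0.0120), and both tested probes were called. The call was lost without FtMT-Adip 1 (0.81, adjusted p = 0.0549).

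Hspd1, the Hsp60 subunit that folds imported proteins, gave 2499 and 2983 in FtMT-Adip, against 1705 and 1631 in WT (1.73-fold, adjusted p = 0.0134 in limma), with 1 of 2 tested probes called. Its call was lost without WT 1 (adjusted p = 0.0540), although its log2 change of 0.79 stayed between 0.73 and 0.86 when single arrays were left out. Hspe1, its Hsp10 lid, gave 892.1 and 1053 in FtMT-Adip, against 596.2 and 619.6 in WT (1.63-fold, adjusted p = 0.0292), and lost its call without any 1 of the 4 arrays, with its log2 change of 0.70 between 0.63 and 0.78. Every FtMT-Adip array exceeded every WT array for these 3 genes, which were picked by their calls. Over all tested probes, the groups did not overlap for 51.5%. The macrophage and adipocyte markers shifted on the same arrays, and their part in these rises was not tested. Hspd1 and Hspe1 lie head to head on opposite strands. The Hspd1 window printed above shares 4 bases with the Hspe1 window, and a second RefSeq window of Hspd1, which holds 0 of the motifs searched, shares 285. In the values normalized by the authors none of the 3 was called.

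The other 17 tested genes were not called. They included Timm21, Pam16 and Dnajc15, which work with the TIM23 motor, and the presequence proteases Mipep and Pitrm1, with log2 changes between -0.12 and 0.19. The extremes were Romo1, a small inner-membrane protein, at -0.55 (adjusted p = 0.0670), and Hsp90ab1, a cytosolic Hsp90 that delivers precursors to Tomm70a, at 0.56 (adjusted p = 0.0892). From a list of 12 regulators and mass markers of mitochondria, 11 were tested. By limma 4 rose (Atf4, Atf5, Ddit3 and Ppargc1b) and 0 fell, beside the 7.44% of all tested probes called in either direction. Cs, Tfam, Ppargc1a and Vdac1 were not called, with log2 changes of -0.05, -0.08, -0.06 and 0.27. Sdha was below background on every array. Atf5, a factor linked to the mitochondrial unfolded protein response, gave 1620.4 and 2082.5 in FtMT-Adip, against 1167 and 989.6 in WT (1.79-fold, adjusted p = 0.0157 in limma). Atf4 gave 2432 and 2480 in FtMT-Adip, against 1550 and 1134 in WT (1.97-fold, adjusted p = 0.0101). The difference between these genes and the import machinery was not tested.

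The authors' deposited table was compared for the same 33 probes. It gives 4 of them p-values under 0.05 before adjustment (12.1%, against 8.93% of all tested probes), 1 with a higher and 3 with a lower ratio in FtMT-Adip. The higher was Chchd4, with a ratio of FtMT-Adip over WT of 1.32 (p = 0.0365) in the authors' deposited table. The lower were the brighter Grpel1 probe (0.711, p = 0.0438), a probe of Mtx1 (0.860, p = 0.0432) and the dimmer Dnajc19 probe, in the authors' deposited table. After Benjamini-Hochberg adjustment of these deposited p-values 0 members and 0 of all 20797 tested probes were called. The sign of the ratio in the authors' deposited table was that of the limma change for 26 of the 33 probes.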

How the data were processed

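Total RNA of 2 FtMT-Adip and 2 WT samples was measured after biotin labelling on Illumina BeadChips, per the labels' protocols. The authors deposited intensity values per probe, non-normalized by the table's title, on a linear scale without background subtraction (lowest 91.3 to 93.1). A second table that the authors deposited holds intensity values called normalized, by a method the sources here do not name, with a ratio and a p-value per probe, per the file headers. The series' value table equals it (largest difference 0).

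From the non-normalized intensity, limma 3.58.1 in R 4.3.3 gave log2 values after normexp (offset 50) and quantile normalization. No detection p-values were at hand, so a probe was tested when it exceeded the 95th percentile of 1479 olfactory and vomeronasal receptor probes (119.6 to 123.5) on at least 2 arrays, which left 20797. FtMT-Adip was set against WT with lmFit and eBayes (variance trend, two-sided, Benjamini-Hochberg at 0.05 over all tested probes). The procedure was tested on simulated data with planted log2 changes of 1 and 2 in size. It recovered 98 of 100 probes changed by 1 and 100 of 100 changed by 2. False calls numbered 26, above the nominal share, so calls near the threshold are less secure than their adjusted p. Smaller changes, such as those of the import probes, were not simulated. A gene is represented by its brightest tested probe. Signals printed per array are non-normalized. The number of arrays limits precision. Of the probes, 22864 carried a current RefSeq symbol (GRCm38.p6) and 11917 an unambiguous older one.

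The members and lists were chosen with earlier results of these data known. Named in full are members with the smallest unadjusted p, core subunits of each machine and called genes of the wider list; Tomm5, Romo1, Hsp90ab1, Atf4 and Atf5 were picked from their lists after their values were seen. Alternatives were a replicate block, leaving out each array, no background correction, offset 16, median centring, the authors' normalized intensity as log2(value + 1), both dim-probe filters, no variance trend and the deposited p-values. Replicates have no scan date or slide in the labels, so batches could not be examined.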

Additional observations from a re-analysis of the deposited data

How the results depend on the processing

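With 2 arrays per group, changes within the intervals given could not be detected, and dim probes such as those of Tomm20, Timm22 and Timm23 gave no level. The count of import probes called lower was 0 under every alternative. The count called higher was 0 except without WT 2, where TIMM13A passed (0.89), so it ran from 0 to 1 when single arrays were left out. The median log2 change of the tested members, 0.11, stayed between 0.04 and 0.16, with 0.0367 to 0.111 when single arrays were left out. Calls over the whole array numbered 1548, 652 (without FtMT-Adip 1) to 1627 when single arrays were left out, 699 from the authors' normalized values and 0 from the deposited p-values after adjustment. Calls in the list of other import genes numbered 3, with 1 to 2 when single arrays were left out and 0 from the authors' normalized values and from the deposited p-values. Romo1 passed without the variance trend (adjusted p = 0.0426 in limma). The cause of these shifts was not tested.

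Arrays of equal number shared only the number, and their deviations correlated at -0.08 over 2 pairs. With the replicate block, 1225 probes were called over the whole array, 0 of them import probes, and 2 of the other import genes, since Hspe1 did not pass (adjusted p = 0.0529 in limma). It also missed without the filter on dim probes (adjusted p = 0.0542). In the authors' normalized values the log2 change was 0.29 for Hspa9, 0.71 for Hspd1 and 0.65 for Hspe1.

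Of 297 values of the 23 genes over 13 alternatives, 268 kept their sign and call, and 28 values of 13 genes turned sign, none of them called before or after. With median centring the log2 change was -0.095 for Dnajc19, -0.055 for Mtx1 and -0.00436 for Timm8b. In the authors' normalized values it was -0.29 for Dnajc19, -0.43 for Mtx1, -0.080 for Timm17a and -0.69 for Tomm22. From the authors' deposited ratios it was -0.28 for Dnajc19, -0.43 for Mtx1, -0.077 for Timm17a and -0.70 for Tomm22. When single arrays were left out, Dnajc19 ran from -0.16 to 0.17, Gfer from -0.30 to 0.0092, Grpel1 from -0.21 to 0.033 and Mtx1 from -0.074 to 0.077. Timm10 ran from -0.067 to 0.23, Timm17b from -0.066 to 0.28, Timm50 from -0.073 to 0.11 and Timm8b from -0.060 to 0.20. Tomm22 ran from -0.0046 to 0.31, Tomm34 from -0.029 to 0.22, Tomm40 from -0.050 to 0.084 and Tomm7 from -0.32 to 0.060.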
